A study of Mus musculus with 24 samples.

Results

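Genes of the extracellular matrix and basement membrane were followed, 10 in number, across 24 RNA-seq libraries of sorted CD8 T cells, as a reading of how much stromal RNA each library held. They were chosen by symbol, as 10 of the 24421 genes in the count files: Col1a1, Col1a2, Col3a1, Sparc, Bgn, Dcn, Fn1, Acta2, Nid1 and Agrn. All 10 were detected, as were 15431 genes of the files in at least 1 library, and together they had 31292 counts. The choice was made with earlier results of the same libraries known, among them the age trend in KC pancreas, which had singled out Col3a1, Bgn, Nid1 and Agrn, and the comparison of tissues.

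The cells were sorted as positive for CD45, CD3 and CD8. There were 12 libraries from KC pancreas, taken at 4 weeks after birth (3 libraries), 9 weeks (2), 13 weeks (3), 20 weeks (2) and 30 weeks (2), and 2 from WT B6 pancreas at 9 and 30 weeks. Blood gave 9 libraries from KC mice, at 4 weeks (2), 9 weeks (1), 13 weeks (3), 20 weeks (1) and 30 weeks (2), and 1 from a WT B6 mouse at 30 weeks. KC mice are used to model pancreatic cancer, and duct lesions form in them as they age. The labels give no allele or driver for the strain, do not say whether mice were pooled, and give no sequencing run. A library is called by its title, in which P8 marks pancreas and B8 marks blood.

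Fibroblasts and pancreatic stellate cells lay down the interstitial matrix, in which type I and type III collagen form fibrils that small proteoglycans space and fibronectin anchors to cells. Basement membranes are thinner sheets under epithelium and around vessels and acini, where nidogen links the laminin and collagen IV networks. In pancreatic cancer models this stroma grows with the lesions, and stellate cells switch on smooth muscle actin. T cells are not a known source of fibrillar collagens, whereas fibronectin is also made by macrophages, and agrin has been described in lymphocytes.

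Gene counts per library ran from 6352070 to 16716169, and 12 T cell markers summed to 7432.6 to 19911.0 counts per 1000000 gene counts (CPM) in every library. At these depths 3 counts, the upper limit that a count of 0 allows, were 0.179 to 0.472 CPM. This limit is one-sided, and the exact Poisson intervals given are two-sided. Intervals and limits cover counting error only. Genes that were high in a single library, their source, had low counts in others. Grouping by which libraries held these low counts gave 2 sets of 12, called trace sets here. Where the low counts came from was not tested. In set 1 were the KC pancreas libraries of 4 and 13 weeks, all 3 WT libraries and the KC blood libraries Sample_42B8, Sample_43B8 and Sample_131B8. In set 2 were the KC pancreas libraries of 9, 20 and 30 weeks, with 6 KC blood libraries. The 92 genes behind the grouping had counts in 92.3% of the libraries that shared the source's set and in 48.4% of those in the other set. This difference follows from grouping on the same counts. Members and other listed genes were left out beforehand, and 0 members met the rule. The sets were derived from the data, and what they are is not given in the labels.

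The stretches of 250 bases before the RefSeq start sites (mouse build GRCm38.p6) are shown for the members whose patterns the results turn on. Nid1, Col3a1 and Bgn were high in the same libraries, and Agrn and Acta2 were high in others as well. Capitals mark a GC box, whose letters are GGGCGG, a box of the letters CCAAT, or the TATA box in its strict form TATAAA, each searched on both strands with overlaps allowed. Promoters were found for 7 of the 10 members.
Nid1 (chr13:13437352-13437601, plus strand): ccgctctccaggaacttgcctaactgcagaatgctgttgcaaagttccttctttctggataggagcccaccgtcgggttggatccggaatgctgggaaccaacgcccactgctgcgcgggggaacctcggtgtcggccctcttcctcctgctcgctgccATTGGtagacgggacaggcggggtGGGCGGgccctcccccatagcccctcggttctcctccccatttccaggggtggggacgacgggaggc
Col3a1 (chr1:45311288-45311537, plus strand): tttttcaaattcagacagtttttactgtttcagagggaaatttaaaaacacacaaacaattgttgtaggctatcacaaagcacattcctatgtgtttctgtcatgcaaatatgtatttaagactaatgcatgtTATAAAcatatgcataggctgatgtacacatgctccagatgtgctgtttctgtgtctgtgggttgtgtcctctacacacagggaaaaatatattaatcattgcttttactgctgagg
Bgn (chrX:73483351-73483600, plus strand): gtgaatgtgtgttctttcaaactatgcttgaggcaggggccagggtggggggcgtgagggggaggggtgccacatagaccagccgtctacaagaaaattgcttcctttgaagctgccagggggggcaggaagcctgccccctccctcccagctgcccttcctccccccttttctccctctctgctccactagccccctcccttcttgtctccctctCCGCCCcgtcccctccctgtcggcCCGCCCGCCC
Agrn (chr4:156197489-156197738, minus strand): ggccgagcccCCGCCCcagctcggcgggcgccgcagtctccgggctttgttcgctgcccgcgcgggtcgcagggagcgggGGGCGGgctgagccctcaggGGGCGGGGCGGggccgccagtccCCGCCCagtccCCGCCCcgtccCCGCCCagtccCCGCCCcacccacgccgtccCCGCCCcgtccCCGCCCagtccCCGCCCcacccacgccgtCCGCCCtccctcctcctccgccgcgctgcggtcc
Acta2 (chr19:34255374-34255623, minus strand): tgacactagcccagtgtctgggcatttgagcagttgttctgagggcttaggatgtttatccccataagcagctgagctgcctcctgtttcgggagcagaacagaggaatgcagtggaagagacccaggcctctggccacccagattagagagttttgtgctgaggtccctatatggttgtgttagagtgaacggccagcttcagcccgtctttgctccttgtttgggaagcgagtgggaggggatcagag
A GC box stood in 32.7% of the 32851 promoters of the table, a CCAAT box in 33.8% and a TATAAA in 12.4%. The Nid1 stretch held 1 GC box and 1 CCAAT box, the Bgn stretch 3 GC boxes at its 3' end, and the Agrn stretch 12 GC boxes, with a GC content of 83.6% against a median of 52.4% over all promoters. Col3a1, at 35.2% GC, held a TATAAA and no GC box. The Acta2 stretch held none of the 3 motifs. It also had no CArG box in its strict form, 10 letters with only A or T between CC and GG. That form stood in 1.47% of the promoters, and looser forms of the box were not searched. Of the genes high together in Sample_43P8, Nid1 and Bgn both held a GC box and Col3a1 held none. Of those whose stretches are not shown, Col1a2 held 2 GC boxes and Sparc held none. An E box, which 66.2% of the promoters held, was found 4 times in Col3a1, 3 times in Acta2, 1 time in Bgn and not in Nid1.

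The matrix counts were gathered in few libraries. A single KC pancreas library of 4 weeks, Sample_43P8, held 57.3% of all counts of the 10 genes. Of 7771 genes whose totals lay between those of the lowest and highest member (365 to 15025 counts), the library with most counts held a median of 25.8% of a gene's counts, and 15.1% of these genes had over 50% in 1 library. Among the members, 8 of 10 had over 50% in 1 library. The members were chosen with earlier results of these libraries known, so nothing is read from this contrast with other genes. Summed over the members, the KC pancreas libraries had a lowest value of 0.927 CPM, a median of 45.0 and a highest of 1889.5, against 15.6 and 6.46 CPM in the WT pancreas libraries. Blood libraries had 1.74 to 162.9 CPM in KC mice, with a median of 16.8, and 27.9 CPM in the WT mouse. The groups overlapped widely, and Fn1 alone made up 48.0% of the counts summed.

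**Figure D1:**
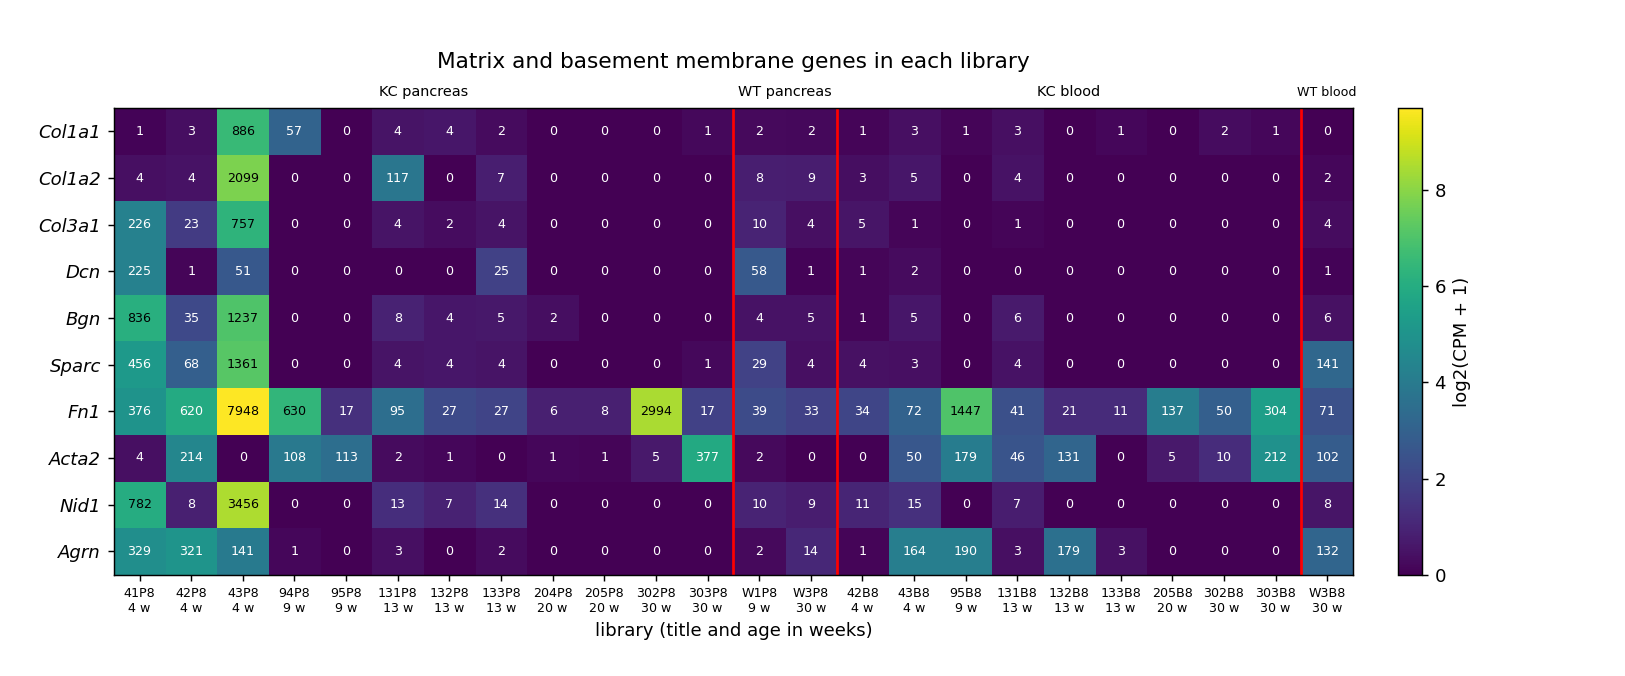
Heat map of 10 genes (rows) in 24 libraries (columns, by group and age in weeks), coloured by log2(CPM + 1), with the count printed in each cell and red lines between the groups. Col3a1, Bgn, Sparc and Nid1 counts sat mostly in Sample_41P8 and Sample_43P8 and type I collagen counts mostly in Sample_43P8, while Fn1, Acta2 and Agrn were high in libraries of both tissues.

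Type I collagen, the main fibre of interstitial matrix, is built of chains from Col1a1 (chr11:94936224-94953042, plus strand, GRCm38) and Col1a2 (chr6:4504814-4541544, plus strand). Col1a1 had 1, 3 and 886 counts in the KC pancreas libraries of 4 weeks (Sample_41P8, Sample_42P8 and Sample_43P8), 57 and 0 at 9 weeks, 4, 4 and 2 at 13 weeks, 0 and 0 at 20 weeks and 0 and 1 at 30 weeks. WT pancreas had 2 and 2 counts, KC blood 0 to 3 and WT blood 0. Sample_43P8 was the library with a high level, at 93.3 CPM, and Sample_94P8 followed at 7.50 CPM.

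Col1a2 had 4, 4 and 2099 counts in the same 3 libraries of 4 weeks, 117, 0 and 7 at 13 weeks and 0 in all 6 KC pancreas libraries of 9, 20 and 30 weeks, against 8 and 9 counts in WT pancreas. KC blood libraries had 0 to 5 counts and the WT blood library 2. The chains did not keep 1 ratio across libraries. Per kb of exon, Col1a1 stood at 0.799 times the level of Col1a2 in Sample_43P8 and at 0.0647 times in Sample_131P8, where Col1a2 had 117 counts and Col1a1 had 4. In Sample_94P8 the 57 Col1a1 counts came with 0 Col1a2 counts.

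Type III collagen, which forms finer fibrils alongside type I, comes from Col3a1 alone (chr1:45311538-45349706, plus strand). Col3a1 had 226, 23 and 757 counts at 4 weeks in KC pancreas, 4, 2 and 4 at 13 weeks and 0 in all 6 libraries of 9, 20 and 30 weeks. WT pancreas had 10 and 4 counts, KC blood 0 to 5 and WT blood 4. Sample_41P8 therefore held Col3a1 without type I collagen: its Col3a1 level per kb of exon was 71.5 times that of Col1a2, against 0.457 times in Sample_43P8.

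The small leucine-rich proteoglycans biglycan and decorin bind collagen fibrils. Bgn (chrX:73483602-73495933, plus strand) had 836, 35 and 1237 counts at 4 weeks in KC pancreas, 8, 4 and 5 at 13 weeks, and 2 counts in all in the 6 libraries of 9, 20 and 30 weeks. It had 4 and 5 counts in WT pancreas, 0 to 6 in KC blood and 6 in WT blood. Dcn (chr10:97479609-97518143, plus strand) had 225, 1 and 51 counts at 4 weeks, 0, 0 and 25 at 13 weeks and 0 at 9, 20 and 30 weeks. WT pancreas had 58 counts at 9 weeks (5.51 CPM, 95% exact Poisson interval 4.18 to 7.12) and 1 count at 30 weeks, KC blood had 0 to 2 and WT blood had 1. The proteoglycans were unlike each other: per kb of exon Dcn stood at 0.281 and 0.0431 times Bgn in Sample_41P8 and Sample_43P8, but at 5.22 times in Sample_133P8 and at 15.1 times in the WT pancreas library Sample_W1P8.

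Sparc (chr11:55394500-55423183, minus strand) encodes a collagen-binding glycoprotein of remodelling matrix, which platelets also carry. It had 456, 68 and 1361 counts at 4 weeks in KC pancreas, 4 in each library of 13 weeks, 0 in 5 of 6 libraries of 9, 20 and 30 weeks, and 1 in the other. WT pancreas had 29 counts at 9 weeks and 4 at 30 weeks. KC blood had 0 to 4 counts, and the WT blood library had 141, or 8.43 CPM (95% exact Poisson interval 7.10 to 9.95). That library had the highest sum of 12 platelet markers, 388.1 CPM, yet Sample_205B8 and Sample_133B8, with 332.6 and 321.5 CPM of the same markers, had 0 Sparc counts. The part of platelet RNA in the Sparc value was not tested.

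Fibronectin, the glycoprotein that ties cells to collagen through integrins, is encoded by Fn1 (chr1:71585520-71653200, minus strand). It was the most abundant member and was detected in all 24 libraries. KC pancreas libraries had 0.817 to 837.3 CPM with a median of 7, against 3.70 and 2.63 CPM in WT pancreas. KC blood libraries had 1.27 to 129.7 CPM with a median of 6.62, and the WT blood library had 4.25. It reached 10 CPM in 9 libraries, 6 of KC pancreas and 3 of KC blood, from 4 to 30 weeks.

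High Fn1 came with collagen in some libraries and without it in others. Sample_43P8 had 7948 Fn1 counts. Sample_302P8, of 30 weeks, had 2994 Fn1 counts and 0 of Col1a1, Col1a2, Col3a1, Bgn, Dcn, Sparc and Nid1. Its 18 macrophage and monocyte markers summed to 863.2 CPM, the highest of the 24 libraries, with 1069 counts of the integrin gene Itgam and 941 of the lysozyme gene Lyz2. Sample_95B8 likewise had 1447 Fn1 counts, 1 count of Col1a1 as its only count of those 7 genes, and 465.4 CPM of macrophage markers, with 3237 counts of Lyz2. Sample_132P8, however, had 584.1 CPM of those markers, 3315 counts of them from the lipid carrier gene Apoe, and 27 Fn1 counts. Sample_94P8 had 630 Fn1 counts with 4.21 CPM of macrophage markers. The part of macrophage RNA in these values was not tested.

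Acta2 (chr19:34241090-34255590, minus strand) encodes the smooth muscle actin that marks contractile cells and activated stellate cells. KC pancreas libraries had 4, 214 and 0 counts at 4 weeks, 108 and 113 at 9 weeks, 2, 1 and 0 at 13 weeks, 1 and 1 at 20 weeks and 5 and 377 at 30 weeks, against 2 and 0 in WT pancreas. KC blood had 0 and 50 counts at 4 weeks, 179 at 9 weeks, 46, 131 and 0 at 13 weeks, 5 at 20 weeks and 10 and 212 at 30 weeks, and WT blood had 102. In KC pancreas Acta2 was mixed at 4 and 30 weeks, high in both libraries of 9 weeks and low at 13 and 20 weeks, and in KC blood it was mixed at 4, 13 and 30 weeks. It went apart from the collagens: Sample_43P8, first for 7 of the other 9 members, had 0 Acta2 counts, and the 4 KC pancreas libraries with over 100 Acta2 counts had 0 to 4 Col1a2 counts.

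Other smooth muscle genes were uneven beside Acta2. Of the 8 libraries with over 100 Acta2 counts, the actin-binding gene Tagln had 90 counts in Sample_42P8, 85 in Sample_95P8, 76 in Sample_95B8, 30 in Sample_132B8 and 184 in Sample_W3B8, and 1 to 3 in the other 3. The myosin light chain gene Myl9 had 122, 35 and 57 counts in Sample_95B8, Sample_132B8 and Sample_W3B8, and the myosin kinase gene Mylk had 23, 173 and 78. These smooth muscle genes were thus uneven among the 8 libraries, and they were also high where Acta2 was low. Tagln had most counts in Sample_131B8 and Sample_133B8, 537 and 478, where Acta2 had 46 and 0. Mylk had most in Sample_302B8, 300 counts, where Acta2 had 10. Des and Rgs5, which mark muscle and pericytes, were at 0 in all 24 libraries. Sample_303P8, with the most Acta2 at 59.4 CPM, had 3 counts of Tagln and 0 of Myh11, the smooth muscle myosin. Its 14 pericyte and smooth muscle markers summed to 4.09 CPM, near the lowest of the 24 libraries (3.29 CPM).

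**Figure D2:**
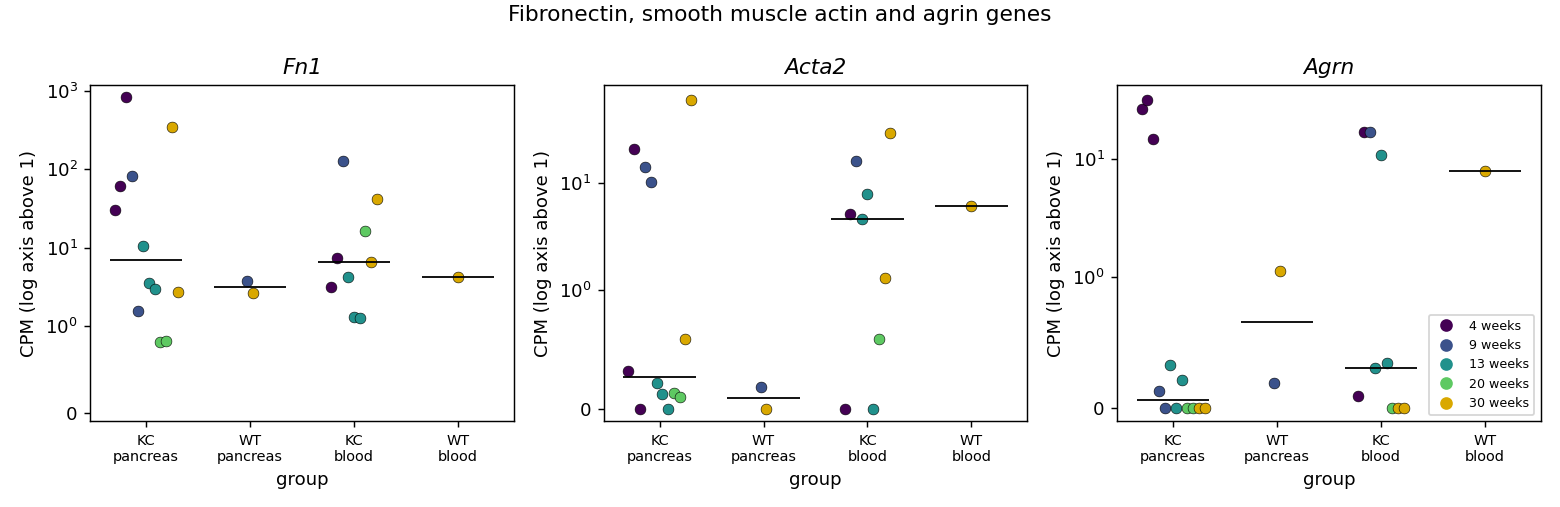
CPM of Fn1, Acta2 and Agrn by group, 1 point per library coloured by age, with a line at the group median and a log axis above 1 CPM. Fn1 ran to 837.3 CPM in KC pancreas and 129.7 CPM in KC blood, and high Agrn points in KC pancreas were all of 4 weeks.

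Nidogen 1, the linker of laminin and collagen IV, is encoded by Nid1 (chr13:13437551-13512269, plus strand). Nid1 had 782, 8 and 3456 counts at 4 weeks in KC pancreas, 13, 7 and 14 at 13 weeks and 0 in all 6 libraries of 9, 20 and 30 weeks. WT pancreas had 10 and 9 counts, KC blood had 0 in 6 libraries and 11, 15 and 7 in Sample_42B8, Sample_43B8 and Sample_131B8, and WT blood had 8. Outside Sample_41P8 and Sample_43P8, Nid1 thus took 1 of 2 states, 7 to 15 counts or 0.

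Agrin, a heparan sulphate proteoglycan of basement membranes that clusters receptors at the neuromuscular junction, is encoded by Agrn (chr4:156165290-156197488, minus strand). It had 329, 321 and 141 counts at 4 weeks in KC pancreas, the member high in all 3 of these libraries apart from Fn1. At 9 weeks it had 1 and 0 counts, at 13 weeks 3, 0 and 2, and at 20 and 30 weeks 0. WT pancreas had 2 and 14 counts. KC blood had 1 and 164 counts at 4 weeks, 190 at 9 weeks, 3, 179 and 3 at 13 weeks and 0 in the 3 libraries of 20 and 30 weeks, while WT blood had 132 at 30 weeks. Agrn did not need Nid1: per kb of exon, Nid1 stood at 32.8 times Agrn in Sample_43P8, at 0.0333 times in Sample_42P8 and at 0.122 times in Sample_43B8, and Sample_95B8 and Sample_132B8 had 0 Nid1 counts.

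Among KC libraries of both tissues that share a title number, Agrn differed for 3 of 9 numbers. Number 42 had 321 counts in pancreas and 1 in blood, number 95 had 0 and 190 and number 132 had 0 and 179. Number 43 had 141 and 164, and the other 5 numbers had 0 to 3 counts in both tissues. The labels do not say that the number marks a mouse.

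The 3 KC pancreas libraries of 4 weeks had unlike mixtures. Per kb of exon, the order in Sample_43P8 was Fn1 (71.7 CPM per kb), Nid1 (52.4), Sparc (37.9), Bgn (21.4), Col1a2 (17.8), Col1a1 (14.2) and Col3a1 (8.12). In Sample_41P8 it was Bgn (11.2), Sparc (9.80), Nid1 (9.17), Dcn (3.14), with Col1a1 at 0.0124. Sample_42P8 was led by Acta2 and Fn1, and its Col3a1, Bgn and Nid1 counts were 23, 35 and 8.

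**Figure D3:**
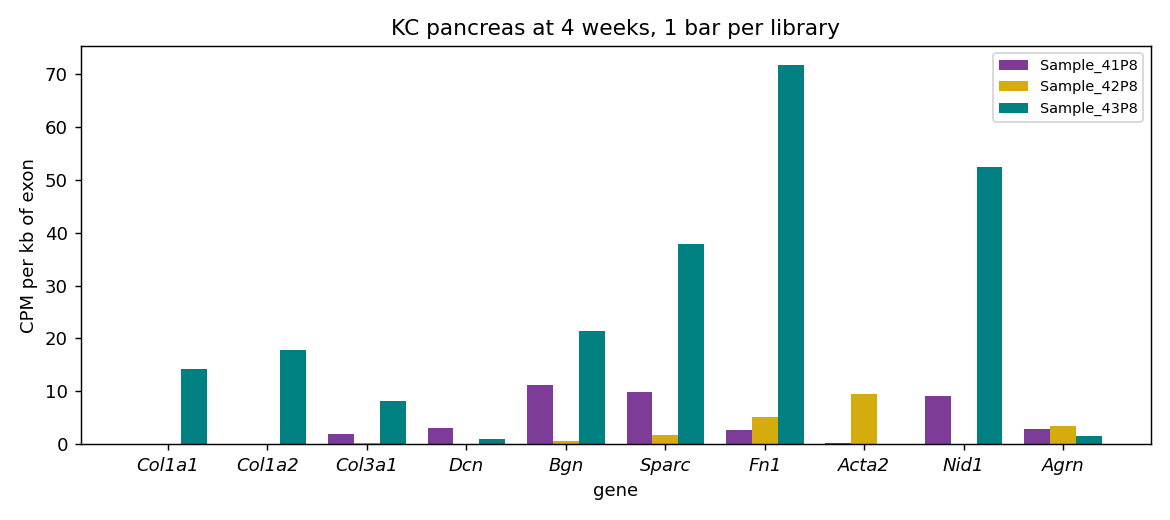
Levels of the 10 genes in CPM per kb of exon (linear axis from 0) in the 3 KC pancreas libraries of 4 weeks, 1 bar per library. Sample_43P8 was led by Fn1 (71.7) and Nid1 (52.4), and Sample_41P8 by Bgn (11.2).

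Marker lists for other cells were read beside these values. Of 24 fibroblast and stellate cell markers, 8 were at 0 in all libraries, among them Pdpn, Twist1 and Scara5. Sample_43P8 had 157 counts of the receptor gene Pdgfra, 235 of the matrix gene Dpt and 155 of the transcription factor gene Prrx1, and 0 of Pdgfrb and Lum. Over the list it had 69.0 CPM, Sample_41P8 had 84.5 and Sample_303P8 had 130.4. Of these counts, 881 of 1038 in Sample_41P8 and 805 of 828 in Sample_303P8 were of Ly6c1, which T cells and endothelium also express. The fibroblast list ran from 0.707 to 130.4 CPM in KC pancreas (median 3.58), was 10.4 and 11.2 in WT pancreas, ran from 0.610 to 4.93 in KC blood and was 4.01 in WT blood. Pdgfra, Dpt and Prrx1 thus came with the collagens in Sample_43P8, and they reached 10 CPM in no other library. In Sample_41P8, where Col3a1, Bgn and Nid1 were also high, Dpt had 0 counts. Ly6c1 was the only marker of the list to reach 10 CPM there. Pdgfra, Dpt and Prrx1 were at 0 in Sample_302P8, Sample_303P8 and Sample_95B8, where Fn1, Acta2 or Agrn was high. In sorted cells of this kind, more cells of a type and more RNA per cell cannot be told apart.

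Sample_41P8 and Sample_43P8 differed in the other basement membrane and vessel genes they held. The basement membrane list summed to 15.9 CPM in Sample_41P8 and 35.1 in Sample_43P8. Sample_41P8 held 603 of 612 counts of Col4a1 and 2241 of 2403 of Col4a2, the chains of basement membrane collagen, and 91 of 95 counts of the heparan sulphate proteoglycan gene Hspg2 and 55 of 82 of Nid2. It had 258 counts of the endothelial factor gene Erg, and Sample_43P8 had 0, while the endothelial cadherin gene Cdh5 had 52 counts in Sample_41P8 and 308 in Sample_43P8. Sample_43P8 held 104 of 124 counts of the laminin gene Lama2, 228 of 685 of Lamc1, 256 of 258 of Col14a1 and 145 of 148 of Col5a1. Of the genes named from these lists, Pdpn, Twist1, Scara5, Pdgfra, Prrx1, Pdgfrb, Lum, Nid2, Col14a1, Col5a1, Des, Rgs5, Myl9, Myh11 and Cdh5 were chosen after their values were seen.

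Other matrix-related genes were spread over all libraries. The integrin genes Itga4, Itga6 and Itgb1, whose products bind fibronectin and laminin, had 95620, 56201 and 40471 counts, each in 24 of 24 libraries. The protease inhibitor gene Timp2 had 26208 counts and the crosslinking enzyme gene Loxl2 had 8165, also in 24 libraries. Col6a3, a chain of type VI collagen, was detected in 24 libraries with 3076 counts, of which 1223 were in Sample_94P8.

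Few genes of the other matrix lists had counts in enough libraries to be tested, and nearly none was called by edgeR over all genes. For the age trend in KC pancreas, 0 of 3 tested collagens, 0 of 5 proteoglycans and glycoproteins, 0 of 1 basement membrane gene, 0 of 6 assembly and turnover enzymes and 1 of 11 receptors were called, in medians of -1.94, -0.86, -0.22, -0.74 and -0.34 log2 per 10 weeks, against -0.04 over all genes. The receptor was Sdc1, a heparan sulphate proteoglycan of the cell surface, with 362, 5 and 1459 counts at 4 weeks and 0 to 26 in the other KC pancreas libraries. Its slope was called lower (edgeR, adjusted p = 0.0111), as were 0.251% of 9555 genes. Most of its counts lay in Sample_41P8 and Sample_43P8, and with the trace set as a term edgeR called no gene. Between KC and WT pancreas 0 of 9, 0 of 19, 0 of 5, 0 of 17 and 0 of 16 genes of these lists were called. None was called between tissues or for age in blood, where 12 and 9 receptors were tested.

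Acinar genes, which code for digestive enzymes, were high in the libraries with most matrix RNA, in another order. The 24 acinar markers in the files summed to 1918.4, 11010.5 and 5440.0 CPM in Sample_41P8, Sample_42P8 and Sample_43P8, and 7 matrix genes (the members without Fn1, Acta2 and Agrn) to 206.1, 13.9 and 1037.4 CPM. The library with most acinar RNA was therefore not one of the pair with most matrix RNA. WT pancreas had 4758.3 and 1322.2 CPM of acinar markers and 11.5 and 2.71 CPM of the 7 matrix genes. The part of pancreatic tissue carried into the sort in these values was not tested.

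**Figure D4:**
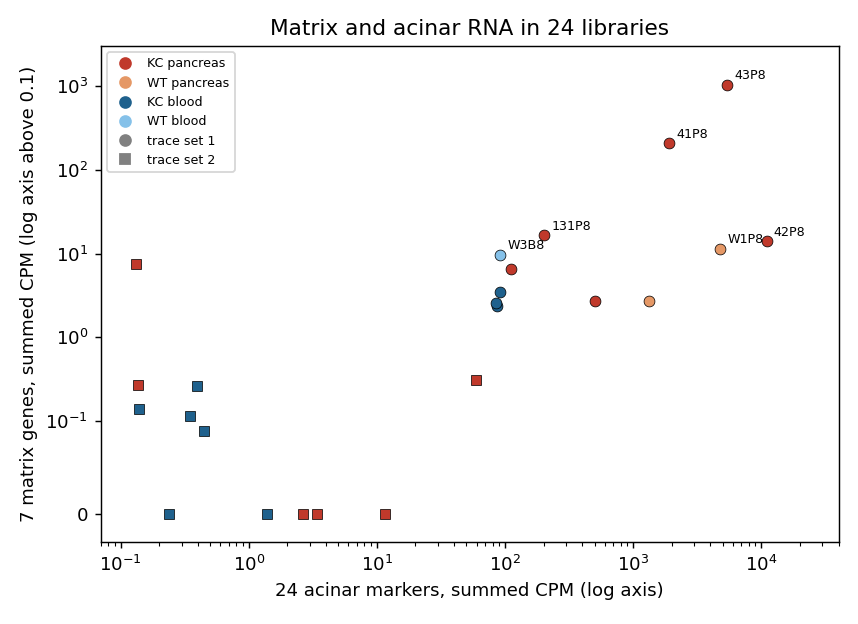
Summed CPM of 7 matrix genes against summed CPM of 24 acinar markers (log axes, with a stretch for 0 on the vertical axis), 1 point per library, coloured by group, with circles for trace set 1 and squares for set 2. Sample_42P8 had the most acinar RNA (11010.5 CPM) with 13.9 CPM of matrix genes, and Sample_43P8 had 1037.4 CPM of matrix genes.

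The low counts of Nid1, Col3a1, Col1a2, Dcn, Bgn and Sparc followed the trace sets. In the 12 libraries of set 2, Nid1, Col3a1, Col1a2 and Dcn were at 0 throughout, Sparc had 1 count in all and Bgn 2. In the 9 libraries of set 1 other than KC pancreas of 4 weeks, Nid1 had 7 to 15 counts, Bgn 1 to 8, Col3a1 1 to 10 and Sparc 3 to 141, each in 9 of 9 libraries. Col1a2 was detected in 8 of these 9 and Dcn in 6, with medians of 5 counts and 1 count. Col1a1 was detected in 6 of 12 libraries of set 2, with 57 counts in Sample_94P8 and 1 or 2 in each of the other 5, and in 8 of the same 9 libraries of set 1. These 9 came from both genotypes and both tissues. The median level in the 11 libraries of set 1 other than Sample_43P8 was 0.261% of that in Sample_43P8 for Nid1, 0.308% for Sparc, 0.397% for Bgn, 0.545% for Col3a1 and 0.184% for Col1a2. For Dcn, with 51 counts in Sample_43P8, it was 1.69%. The trace genes had a median of 0.206% of their source in the source's own set. Of the 7771 genes with totals between those of the members, 25 were detected in every library of set 1 and at 0 in every library of set 2. Nid1 and Col3a1 were among the 25, as were acinar genes such as Cpa1, Clps and Pnlip, named after their values were seen.

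Exceptions stood above these low counts: Col1a2 in Sample_131P8 (117 counts, 12.9 CPM), Dcn in Sample_W1P8 and Sample_133P8 (58 and 25), Sparc in the WT blood library (141) and, in set 2, Col1a1 in Sample_94P8 (57). Fn1 and Acta2 were not confined to 1 set, though Acta2 lay higher in set 2. Acta2 had 0 to 214 counts in set 1 outside Sample_43P8 and 0 to 377 in set 2, with medians of 2 and 59. Fn1 had 27 to 620 counts in set 1 outside Sample_43P8 and 6 to 2994 in set 2, with medians of 41 and 35.5, and Agrn had high libraries in both.

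**Figure D5:**
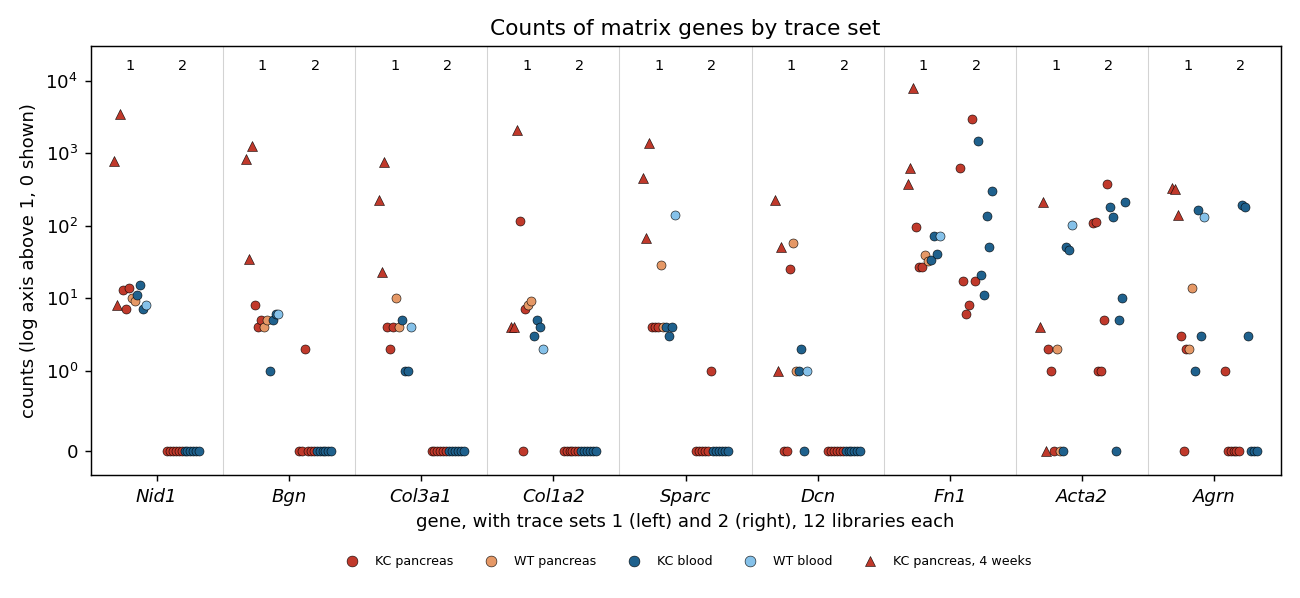
Counts of 9 genes per library (log axis above 1, with 0 shown), with trace set 1 at the left and set 2 at the right of each gene, coloured by group, and triangles for KC pancreas of 4 weeks. Nid1, Col3a1, Col1a2 and Dcn were at 0 in all 12 libraries of set 2, while Fn1, Acta2 and Agrn were detected in both sets.

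The age series asks how stromal RNA in the sort changes as lesions form. In KC pancreas this contrast helped to choose the members, so its values are a description. In a fit of 12 libraries with edgeR, with age as a number, the slopes in log2 per 10 weeks were -6.89 ± 1.28 (SE) for Nid1, -6.08 ± 1.13 for Agrn, -6.02 ± 1.21 for Col3a1 and -5.32 ± 1.11 for Bgn. Sparc had -4.40 ± 1.08, Dcn -3.57 ± 1.22, Fn1 -0.35 ± 0.63 and Acta2 0.68 ± 0.71. The type I collagen genes did not enter, since too few libraries had counts enough to pass the filter on low counts. Of the 8 members tested, 4 were called lower with age, against a background of 0.251% of 9555 genes called lower. This contrast had singled those genes out, so the count restates the choice and nothing is read from it, and they passed the filter on low counts through the libraries of 4 weeks. The slopes of genes with many 0 counts depend on how 0 is handled in the fit.

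The levels did not fall steadily with age. Nid1 averaged 142.9 ± 194.2 CPM at 4 weeks (SD, n = 3), 0 at 9 weeks, 1.29 ± 0.334 at 13 weeks (n = 3), and 0 at 20 and 30 weeks. Agrn averaged 24.4 ± 8.58 CPM at 4 weeks and 0 to 0.183 CPM at later ages. The ages that had Nid1, 4 and 13 weeks, were those of trace set 1. With the set as a term the fitted slopes were -5.48 for Nid1, -5.03 for Agrn, -4.57 for Col3a1 and -3.05 for Bgn, and edgeR called 0 genes of any kind. With each library left out in turn, Nid1 was called in 11 of 12 fits, Agrn in 9, Bgn in 6 and Col3a1 in 5, counting as not called the fits in which low counts kept a gene out. Without both Sample_41P8 and Sample_43P8, an alternative added after the data were seen, 2 members passed the filter on low counts, Fn1 and Acta2.

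In KC blood the same slope was fitted in 9 libraries. This age trend was not used to choose the members, though the same libraries entered the comparison of pancreas with blood that was known then. Counts were enough for 3 of 10 members. Agrn had 16.9 and 0.0909 CPM at 4 weeks, 17.0 at 9 weeks, 10.9, 0.348 and 0.305 at 13 weeks and 0 at 20 and 30 weeks, and its slope was -4.15 ± 1.33 (SE), which edgeR did not call (p = 0.00436, adjusted p = 0.400). Without Sample_43B8, Sample_95B8 or Sample_132B8, the 3 libraries with over 100 Agrn counts, too few libraries with counts enough were left to fit it. Without each of the other 6 in turn the slope was -4.81 to -3.76, not called. The Wald test of DESeq2 called it (-4.00, adjusted p = 0.00284). A library of 4 weeks and 2 of 13 weeks had 1 to 3 counts, close to the 0 counts of 20 and 30 weeks. With the trace set as a term the slope of Agrn was -5.13, and in set 1 alone -4.49, neither called. Fn1 (-0.08 ± 0.72, adjusted p = 0.990) and Acta2 (0.44 ± 0.81, adjusted p = 0.900) did not pass, and their signs changed with single libraries. The percentage of genes called was 0, that is 0 of 9933, with 870 genes at an unadjusted p under 0.05 in edgeR and 317 called by DESeq2.

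Pancreas against blood asks which transcripts mark the tissue site. This contrast too was known when the members were chosen. In edgeR's fit of 21 KC libraries with age as a factor, none of the 8 members tested was called, against a background of 0.0904% of 11059 genes (1089 had an unadjusted p under 0.05, as did 4 of the 8 members), and DESeq2 called none of the 8. Dcn, Col3a1, Nid1, Sparc and Bgn had at most 15 counts in any KC blood library. They passed the filter on low counts mainly through pancreas libraries, so nothing is read from the 4 of 8 or from the direction of these genes. The log2 differences, pancreas over blood, were 4.69 ± 1.61 (SE) for Dcn, 3.87 ± 1.51 for Col3a1, 3.28 ± 1.48 for Nid1, 3.18 ± 1.44 for Sparc, 2.98 ± 1.49 for Bgn and 1.40 ± 1.10 for Fn1. They were -0.82 ± 1.42 for Acta2 and -2.60 ± 1.57 for Agrn, and the median of all genes was -0.12. With trace set beside age, the values were 3.84, 3.22, 2.58, 2.60, 2.42, 1.04, -0.79 and -1.33 in the same order. Within set 1 Agrn was at 0.23 and Fn1 at 2.54, and within set 2 Agrn was at -5.45 and Fn1 at -0.30. Over 9 pairs with a shared title number, Acta2 was higher in pancreas in 2 and in blood in 6, Agrn in 2 and in 4, and Fn1 in 6 and in 3, with ties in the others. Sparc was higher in pancreas in 6 and in blood in 0, Col3a1 and Bgn in 5 and in 0, Col1a2 in 4 and in 0, Dcn in 3 and in 0, Col1a1 in 6 and in 2 and Nid1 in 4 and in 1. Many of these pairs rest on few counts. Sparc had 4 counts in pancreas and 4 in blood for number 131, 4 and 0 for numbers 132 and 133, and 1 and 0 for 303. For numbers 132 and 133 the pancreas library lay in trace set 1 and the blood library in set 2, so tissue and set cannot be told apart there.

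KC against WT pancreas asks whether the sort from lesion-bearing tissue holds more stromal RNA. At the ages both had, 9 and 30 weeks, the levels of Col1a2, Col3a1, Sparc, Bgn, Dcn, Nid1 and Agrn in KC libraries all lay below those in WT libraries, and those of Acta2 lay above. Col1a1 had 58 counts over the KC libraries, 57 of them in Sample_94P8, against 4 over the WT libraries. The KC libraries (Sample_94P8, Sample_95P8, Sample_302P8 and Sample_303P8) had 0 counts of Nid1, Col1a2, Col3a1, Bgn and Dcn, against 19, 17, 14, 9 and 59 counts over the WT libraries. With 3 counts over the KC group as the floor, pooled WT CPM was 28.5 times that floor for Dcn, 9.16 times for Nid1, 8.20 times for Col1a2, 6.75 times for Col3a1 and 4.34 times for Bgn. These ratios leave out the counting error and spread of the WT counts, so they are not lower bounds of the difference. The WT counts of Dcn rest on the library of 9 weeks, without which 1 count was left. Acta2 had 0.589 to 59.4 CPM in KC libraries, against 0.19 and 0 in WT libraries.

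The CPM ranges of 8 of 10 members did not overlap, against 13.2% of 13769 genes detected in these libraries. Fn1 (1.56 to 352.8 CPM in KC, 2.63 and 3.70 in WT) and Col1a1 overlapped. In the edgeR fit across 14 pancreas libraries none of the 10 members was called (adjusted p of 0.564 or more), against 0.226% of 12374 genes, and DESeq2 called none of the 10. Unadjusted p was under 0.05 for 8 members and for 717 genes. Fitted log2 differences, KC over WT, were -5.87 ± 2.06 (SE) for Nid1, 4.98 ± 1.69 for Fn1 and 8.45 ± 3.05 for Acta2, those of genes at 0 in KC depending on how 0 is handled. Of the acinar markers, 20 of 23 tested were called lower in KC, the direction of 7 of the 10 members.

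Genotype and trace set cannot be told apart in that comparison, since both WT libraries lay in set 1 and all 4 KC libraries in set 2. The KC libraries of set 1 nearest in age, those of 13 weeks, had 13, 7 and 14 counts of Nid1, 4, 2 and 4 of Col3a1 and 8, 4 and 5 of Bgn, against 10 and 9, 10 and 4, and 4 and 5 counts in WT libraries. Acta2 had 2, 1 and 0 counts in those KC libraries, against 2 and 0 in WT libraries. All these values overlapped, though the ages differed. Against all KC libraries, or in set 1 alone, the fitted difference of Nid1 was 5.61 or 6.59, of the opposite sign, and it was not called. The WT comparison of pancreas with blood has no replicates, and Nid1 had 9 counts in pancreas and 8 in blood at 30 weeks, while Agrn had 14 and 132, Acta2 0 and 102 and Sparc 4 and 141.

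The genes most like the members were ranked by Pearson's r of log2(CPM + 1) over the 14 pancreas libraries, among 11434 genes, as a description of points that share libraries. For the summed members they were Ecm1 (0.852), Maf (0.850), Lmo4 (0.845), Zeb2 (0.835) and Med12 (0.828). Nid1 was most like Serpinb1a (0.973), Nav2 (0.972) and Lox (0.970). Lox, which crosslinks collagen, had 859, 6 and 2056 counts in the 4-week libraries in the order above and 0 to 12 in the other 11. Agrn was most like Aig1 (0.964), Ptprk (0.942) and Csf2rb2 (0.935). Csf2rb2, a cytokine receptor subunit, had 1440, 1074 and 109 counts at 4 weeks, 0 to 11 in the other KC libraries and 7 and 215 in WT pancreas.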

How the data were processed

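RNA of sorted CD8 T cells was prepared by the Rneasy Plus Micro kit, per the labels' protocols. The authors deposited raw counts per gene symbol, 1 file per library. TopHat, SAMtools, HTSeq, DESeq and the build mm10 are named in the submitters' processing notes, with no version or role. Whether counting used strand is not given in the sources used here, so counts of Nid1 and Fn1 could include antisense genes annotated over them. Of the tallied reads, 11.7% to 32.5% fell in genes and 48.6% to 69.7% in no feature. The 5 tallies stayed out of totals and tests.

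CPM was computed over gene counts, and CPM per kb over merged exons of GENCODE M21. Low genes were removed by filterByExpr (minimum count 10), libraries were TMM-scaled, and two-sided robust quasi-likelihood F-tests were run in edgeR 4.0.16 under R 4.3.3. A gene was called at a Benjamini-Hochberg adjusted p under 0.05 over all genes tested, with DESeq2 1.42.0 as an alternative. The SE of a log2 value was its size over the square root of F. The fits were tested on simulated counts. The labels do not say that libraries of a group came from separate mice, so p-values measure the spread between libraries.

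The 10 members and the gene lists were chosen with earlier results of these data known. Genes named besides them were up to 3 per list by mean CPM and those most alike, and others are said to be chosen after their values were seen. Trace sets were derived from genes that reached 100 CPM in a single library and stayed within 5% of that level in all others, with at least 3 such genes per source. Alternatives were other scaling, no filter, DESeq2, libraries left out, trace set as a term or each set alone, other age terms and the title number as a block.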

Additional observations from a re-analysis of the deposited data

Results flagged for a closer look

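In KC blood, 11 quantities (each member and their sum) were examined for a library far from the other 8, and 4 were flagged. The rule flags about 1 in 20 groups by chance only where values are normally distributed. Many counts here were 0, so that rate does not apply and the number flagged is not set against it. The sum holds Fn1, so its flag is not separate from that of Fn1. Fn1 stood at 129.7 CPM in Sample_95B8, against 42.3 CPM in the next library, and the sum of the members in that library was 162.9 CPM, against 71.9 in the next. The other flags rest on few counts: Col3a1 at 0.455 CPM in Sample_42B8 was 5 counts, and Dcn at 0.206 CPM in Sample_43B8 was 2 counts. Groups of 12, 2 and 1 libraries were not examined in this way.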

How the results depend on the processing

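The number of genes called was 10 for KC pancreas against KC blood, and 34 with no filter on low counts, 480 with DESeq2, 65 with no age term, 6 in trace set 1 and 2 in set 2. Leaving out 1 library gave 6 (without Sample_302P8) to 21 (without Sample_131B8). For the age trend in KC pancreas it was 28, and 686 with no filter, 422 with DESeq2, 0 with the set as a term, in set 1, in set 2 and for later ages against 4 weeks, 7 without Sample_41P8 and Sample_43P8, and 10 to 31 with 1 library left out. For KC blood it was 0, and 102 with no filter, 317 with DESeq2, 25 in set 1 and 0 to 12 with 1 library left out. For KC against WT pancreas it was 28, and 158 with DESeq2, 2 over all KC ages, 0 in set 1 and 4 to 29 with 1 library left out. The cause was not tested, beyond that smaller sets hold fewer libraries. No member was called under any of these in the tissue and genotype comparisons.

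Signs turned in KC against WT pancreas. Over all KC ages the log2 differences were 4.96 for Col1a2, 3.87 for Col3a1, 3.47 for Sparc, 5.53 for Bgn, 5.61 for Nid1 and 3.21 for Agrn. In set 1 they were 5.94, 4.85, 4.45, 6.51, 6.59 and 4.18 in the same order, and 0.70 for Dcn; the KC libraries of 4 weeks enter both. With 1 library left out, Col1a1 ran from -2.43 to 4.37, and in blood the slope of Fn1 ran from -0.77 to 0.63 and that of Acta2 from -1.10 to 0.76. In set 1 the blood slope of Fn1 was 0.29. The mean summed CPM in KC pancreas was 238.2, and 88.1 without Sample_43P8 to 259.8 with 1 library left out. In KC blood it was 36.9, and 21.1 without Sample_95B8 to 41.3.

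With the title number as a replicate block, 14 genes were called between tissues, none of them a member. Deviations of the 7 pairs that could be checked correlated at -0.0543 to 0.0153. Deviations within groups of so few libraries cannot decide whether a shared number marks a mouse, and nothing is read from them.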

Other observations

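Genes of the other cell lists also stood high in 1 or a few libraries. The keratin gene Krt18 had 3078 of its 3154 counts in Sample_133P8, the endothelial factor gene Erg 4933 of 5272 in Sample_205P8, Apoe 3315 of 4359 in Sample_132P8 and the red cell anion exchanger gene Slc4a1 3836 of 4486 in Sample_133B8. Fabp4, a lipid carrier of fat cells and vessels, had its 136 counts in Sample_41P8 alone, and the insulin gene Ins2 had 190 of 191 there. Timp2 reached 8561 counts in Sample_131B8.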
